A study of Mus musculus with 2 samples.

Results

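The splice junctions described here were chosen by their flags and by measured read counts: the deposited junction table marks them with a flag A of 0 and a flag C of 1, and they carried at least 10 reads in each of the columns R1 and R2. On chromosomes 1 to 19 of the mouse build mm9, 5450 junctions met that rule. The whole table holds 492582 junctions, of which 478633 lie on those chromosomes. The RNA was from the kidney, taken at 8 weeks of age from C57BL/6J mice, a common inbred strain, with no treatment or mutation given in the labels. The labels give 1 group of 2 libraries, replicate 1 and replicate 2, each from pooled male and female kidneys of littermates, and 1 donor label covers both. Polyadenylated RNA freed of ribosomal RNA was sequenced from both ends with the strand kept. The junction table pools the libraries, and no source used here says what R1 and R2 stand for or ties either to a library. No source says what the letters A and C stand for either, so the junctions are called A 0 C 1 members below and are set beside the A 1 C 1 and A 0 C 0 junctions with the same read support.

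Splicing removes an intron from its donor, the 5′ splice site, to its acceptor, the 3′ splice site. Most introns begin with GT and end with AG. A gene can pair 1 donor with several acceptors, or 1 acceptor with several donors, and it can skip an exon by joining more distant sites. Tandem acceptors a few bases apart, in which each AG can end the intron, are a common form of such choice. Gene families that arose by duplication can lie side by side in the genome with exons of nearly the same sequence, and a read from such an exon can be placed in more than 1 copy.

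The sequences below show what a longer member takes out of a neighbouring exon. Each is 30 bases of the spliced transcript around the border at which the nearest flag A 1 junction joins its exons, from the GENCODE M21 transcripts of GRCm38. Capitals mark the exon bases that the member leaves out. In the first 6 they lie after the border, so the member ends at a later acceptor. In the last 3 they lie before it, so the member begins at an earlier donor. In these sets the new acceptors end in AG and the new donors begin with GT. The same holds for Fau, whose 3 bases are TAG, and Tmem176b, whose 3 bases are CAG, which are not printed. The 3-base examples printed are thus all CAG, and the other letters are counted below.
Cfd, 3 bases: gagcggctgtatgtgCAGcacagccccgag
Aes, 3 bases: aactccatcatccgaCAGcagctccaggct
Ces1e, 3 bases: cattcacagcaggggCAGgacatccatcct
Psap, 3 bases: atggacccctatgagCAGaatctggtccag
Atp5j, 5 bases: gggactcagtgcaagTACAGagactcagcc
Miox, 5 bases: ggatcctcgatacagCACAGaactcggcat
Ddc, 4 bases: attccaagcaaGTAAttttcaacatggatt
Ddx17, 6 bases: gaggaggggGTAAGGgaggccgctcacgat
Pdcd6, 6 bases: cactctcagGTTTTGgctaccggctctctg

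A second group of sequences shows the exon borders of gene pairs that members join to each other. For each pair the 30 bases around the border of 1 gene stand above the matching 30 of the other gene, from the same transcripts, and capitals mark bases that differ. The Hba, Hbb and Cyp4a pairs are shown because members between these genes are among the most abundant. The Klk and Slc6a20 pairs are examples of lower count, with 3959 and 3400 reads in their highest members. Pairs with higher members, such as Selenbp2 to Selenbp1 with 8009 reads, are not shown.
Hba-a1: cccgtcaacttcaagctcctgagccactgc
Hba-a2: cccgtcaacttcaagctcctgagccactgc
Hbb-bs: cctgagaacttcaggctcctgggcaatatg
Hbb-bt: cctgagaacttcaggctcctgggcaatatg
Cyp4a10: tggccaaaTccagaggtgtttgacccttcc
Cyp4a31: tggccaaaCccagaggtgtttgacccttcc
Klk1b5: ccactgccataatgacaagtaccaggtTtg
Klk1: ccactgccataatgacaagtaccaggtGtg
Slc6a20a: gaatctactggcaaggtggtctaCttcacc
Slc6a20b: gaatctactggcaaggtggtctaTttcacc

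Gene names rest on lengths, not on positions. A junction was named when its intron, the neighbouring exon and the next intron had the same lengths and order as in a GENCODE M21 gene on the same chromosome and strand. This placed 155261 of the 162426 flag A 1 junctions (95.6%), and 98.7% of those matched 1 gene. Of the members, 4294 (78.8%) received a name at an end or as a whole intron, and the others are given by position. The kidney markers Umod, Slc34a1, Aqp2, Slc12a3, Nphs1 and Slc12a1 all had a TPM of at least 22.4 in both libraries. The skeletal muscle genes Ckm and Acta1 had 0.99 and 0.93 TPM in replicate 1 and 185 and 430 TPM in replicate 2. The adrenal gland gene Star had 5.0 and 0.26 TPM, the liver genes Alb and Apoh stayed at 8.19 TPM or less, and the pancreatic genes Prss2 and Pnlip were at 0. Depth over genes was 67252609 expected counts in replicate 1 and 87330097 in replicate 2.

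The members were few and mostly low in count. Their median was 53 reads (quartiles 34 and 113, range 20 to 85633), against 140 (62 and 354, 20 to 314551) for the 97739 A 1 C 1 junctions and 64 for the 1274 A 0 C 0 junctions. Members held 1.97% of the reads of all supported junctions, A 1 C 1 junctions 97.1% and A 0 C 0 junctions 0.707%. A count of 100 or more was reached by 1521 members (27.9%), 1000 or more by 134 (2.46%) and 10000 or more by 8. The 10 highest members alone held 217493 of the 1035218 member reads. The rule itself sets a floor of 10 in each column, so these counts describe the members and test nothing. Just inside that floor, the 407 members with 10 in the smaller column had a median count of 25, a median span of 2216 bases and an end shared with a flag A 1 junction in 78.4%. Just outside it, the 533 junctions with 9 in the smaller column had 22 reads, 2093 bases and 76.7%.

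The span of a member, from the first to the last base of the intron, was longer in the middle and far longer at the top than that of the A 1 C 1 junctions. The median was 2467 bases for members (95% interval 2282 to 2670), 1186 for A 1 C 1 junctions (1172 to 1200) and 1155.5 for A 0 C 0 junctions (957 to 1305). Spans of 10000 to under 100000 bases made up 22.2% of members and 7.55% of A 1 C 1 junctions. Spans of 100000 bases or more made up 6.70% of members (365), 0.271% of A 1 C 1 junctions (265) and 10.9% of A 0 C 0 junctions (139). At the short end, 3.05% of members, 6.78% of A 1 C 1 junctions and 13.7% of A 0 C 0 junctions spanned under 100 bases. These intervals and those below cover counting error only, as Wilson intervals for shares and binomial order statistics for medians.

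**Figure D1:**
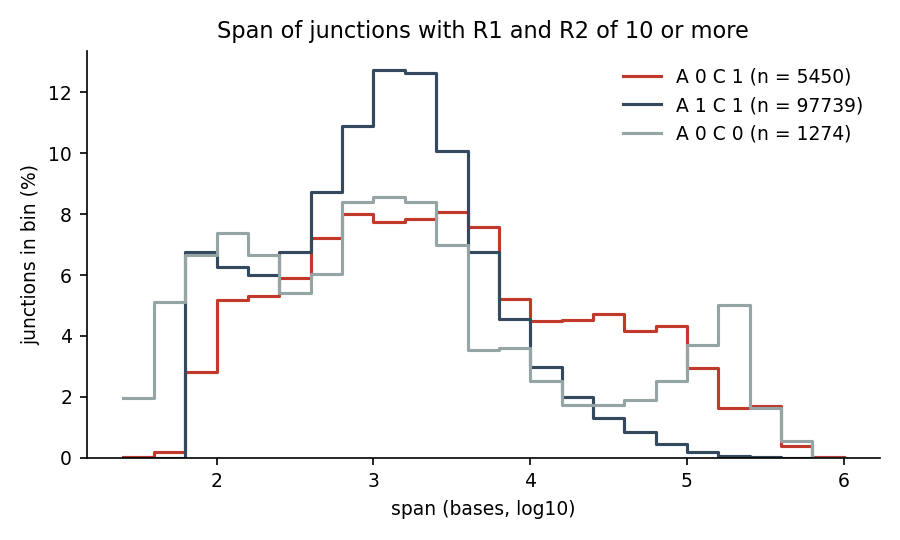
Span of junctions with at least 10 reads in R1 and in R2 on chromosomes 1 to 19, as the percentage of each flag group in bins of log10 bases. The A 0 C 1 members (red) carry a shoulder above 10000 bases, where A 1 C 1 junctions (dark blue) are sparse: 22.2% of members and 7.55% of A 1 C 1 junctions spanned 10000 to under 100000 bases.

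The shortest members spanned 32, 34, 40, 41 and 45 bases. The 32-base junction at chr11:60371177-60371208 on the plus strand had 104 reads in R1 and 206 in R2, and the 34-base junction that ends at the same base had 24 and 43. The 41-base junction lay in Fxyd4, an ion transport regulator, and had 20 and 11. The longest member with 1 gene name, at 590079 bases, began at a donor of Gmps, a GMP synthase, with 161 reads in R1 and 169 in R2. The longest of all, chr4:42024900-42667736 on the plus strand, spanned 642837 bases with 72 and 84 reads, and its ends lay in genes that the lengths could not tell apart.

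Members lay on the plus strand in 50.3% (2744; interval 49.0 to 51.7), as did 50.5% of A 1 C 1 junctions. The A 0 C 0 junctions lay there in 59.3% (56.6 to 62.0). By chromosome, members numbered from 100 on chromosome 18 to 482 on chromosome 7. Per 1000 A 1 C 1 junctions of the same chromosome they ranged from 36.1 on chromosome 11 to 81.7 on chromosome 17.

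R1 and R2 of the members kept near the ratio of the table totals, 1.17 for R2 over R1. R1 held a median of 47.3% of a member's reads (quartiles 40.4 and 53.8). After scaling by the totals, R1 and R2 differed 2-fold or more in 599 members (11.0%), against a background of 7.52% over all 104714 supported junctions, with R1 higher in 367 and R2 higher in 232. Because the rule used both columns, nothing is read from that share. Among members of 100 reads or more, chosen here after their values were seen, R2 was highest beside R1 at chr4:41774346-42231272 and chr4:41985649-42231272, both on the plus strand and each with 32 and 401 reads, between copies of the chemokine gene Ccl21b and its neighbours. A member in Ighm, the immunoglobulin mu heavy chain, had 27 and 212. R1 was highest beside R2 in Slc26a4, the anion exchanger pendrin, with 86 reads in R1 and 18 in R2. Next were a member from Cyp2d9 to Cyp2d12 with 167 and 37, and a member in Sigirr with 115 and 26. A member in Slc12a3, the thiazide-sensitive sodium chloride cotransporter, had 113 and 33. The Slc12a3 gene had 512 TPM in replicate 1 and 247 TPM in replicate 2.

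**Figure D2:**
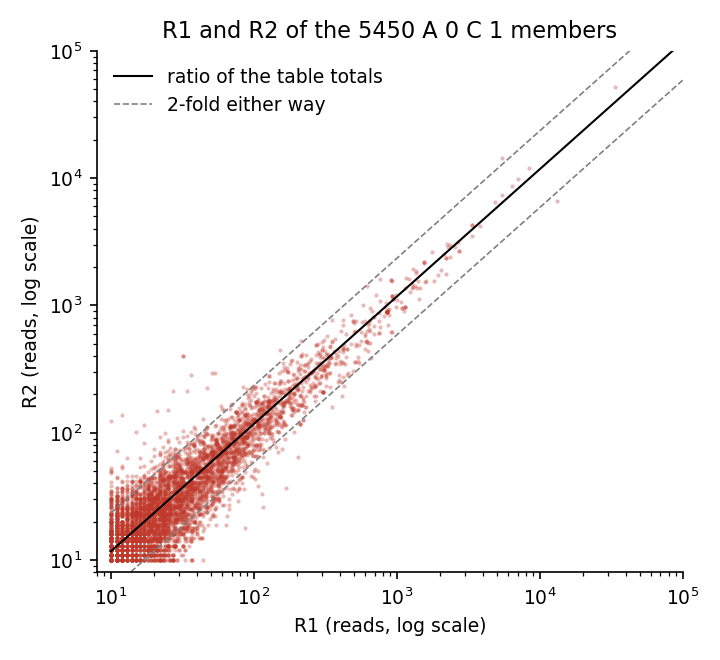
R1 and R2 of the 5450 A 0 C 1 members on log axes, 1 point a member, with the ratio of the table totals (solid line) and 2-fold either way (dashed lines). The rule cuts both axes at 10, and 599 members lie outside the dashed lines.

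An end on the same strand was shared with a flag A 1 junction by 4000 members (73.4%; 72.2 to 74.6). Among A 0 C 0 junctions of the same support it was 80 of 1274 (6.28%; 5.07 to 7.75), and among the 110039 A 0 C 1 junctions of lower support it was 65.4%. The donor alone was shared by 1457 members (26.7%) and the acceptor alone by 1438 (26.4%). Both ends were shared, each with a flag A 1 junction, by 1105 (20.3%), and neither by 1450 (26.6%). The groups differed in span, with medians of 1246 bases where the donor was shared, 2102.5 where the acceptor was, 22703 where both were and 1607.5 where neither was. Median counts were 49 reads with the donor shared, 49 with the acceptor, 65 with both and 55 with neither. Members with both ends shared held 42.1% of the member reads.

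At the end it shared, a member took a minor part of the reads in most cases. Its share of all reads that used that end, over every junction of the table there, had a median of 13.4% (12.5 to 14.5; quartiles 3.68 and 33.3). Under 10% was taken by 1738 of the 4000 (43.5%), and 50% or more by 490 (12.3%). The median share was 11.7% where the donor was shared, 13.5% where the acceptor was, and 17.1% where both were, taking for those the end with more reads.

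**Figure D3:**
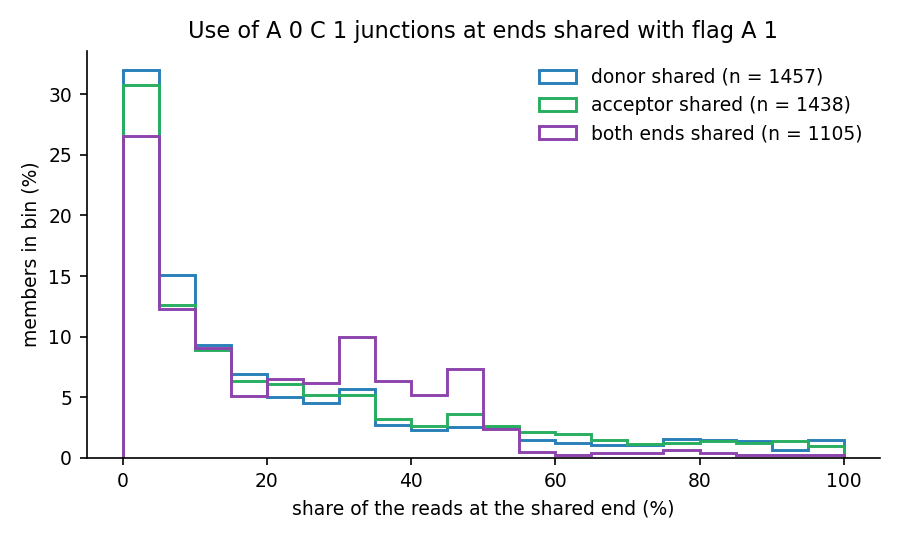
Share of the reads at the shared end that used the A 0 C 1 member, in bins of 5%, as the percentage of members with a shared donor, a shared acceptor or both ends shared. All 3 outlines are highest in the lowest bin, and the outline for both ends has further rises at 30% to 35% and at 45% to 50%.

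Some members were nonetheless the main junction at their end. In Rab10os, an antisense transcript, the member had 285 reads in R1 and 352 in R2, 99.7% of the reads at its acceptor. In Vav2, a guanine nucleotide exchange factor, the member had 90 and 220 reads, 99.4% of the acceptor's reads, and its intron was not found in M21. The members of Ppfia1 (99.6%), Slc4a9 (99.4%) and Ankrd44 (99.2%) completed the 5 highest shares at ends with 100 or more reads. In each of these 5 genes the flag A 1 junction nearest to the member had only 1 or 2 reads.

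Many alternative acceptors lay close to a flag A 1 acceptor. Among the 1457 members that shared only a donor, the distance from their acceptor to the nearest flag A 1 acceptor of the same donor had a median of 82 bases, and 759 (52.1%) lay within 100 bases. The most frequent distance was 3 bases. The member intron was 3 bases longer in 181 (12.4%) and 3 bases shorter in 73 (5.01%). The intron was 4 bases longer in 50, 5 bases longer in 22 and 6 bases longer in 11, while 4, 5 and 6 bases shorter occurred in 6, 3 and 3 members. Of the 759, 59.2% lay at a multiple of 3 (55.6 to 62.6). Without the 254 members at 3 bases it was 195 of 505 (38.6%; 34.5 to 42.9).

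Alternative donors were spread more widely. Among the 1438 members that shared only an acceptor, the distance had a median of 497 bases and 391 (27.2%) lay within 100. The peak at 3 bases was not seen there, with 3 members longer and 2 shorter by 3 bases. Members 4 bases longer numbered 15, those 4 bases shorter 16, and those 6 bases longer 14. Of the 391, 157 lay at a multiple of 3 (40.2%; 35.4 to 45.1).

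**Figure D4:**
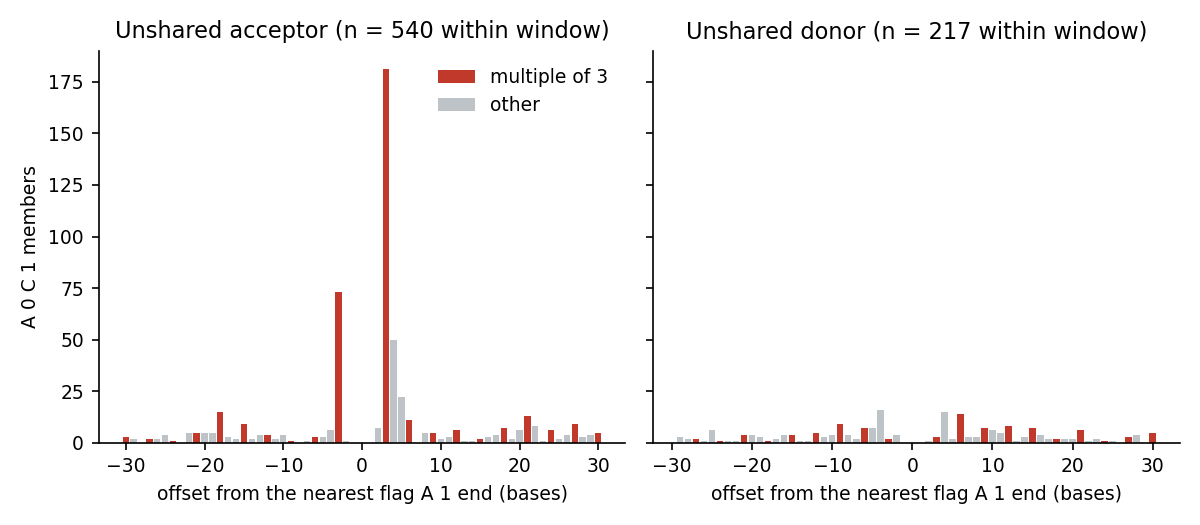
Distance in bases from the unshared end of a member to the nearest flag A 1 end reached from its shared end, within 30 bases, for unshared acceptors (left) and unshared donors (right). Positive values mean that the member intron is longer, red bars mark multiples of 3, and the 2 tallest bars are acceptors 3 bases longer (181 members) and 3 bases shorter (73 members).

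The bases at the new ends could be read where a longer member cuts into an exon of an M21 transcript. All 565 such acceptors ended in AG (99.3% to 100%), and all 287 donors began with GT (98.7% to 100%). In the first 100 exon bases after A 1 C 1 junctions, AG made up 7.98% of all dinucleotides on the transcript strand, and in the last 100 before them GT made up 4.66%. The few A 0 C 0 junctions that could be read the same way had AG at 0 of 4 acceptors and GT at 0 of 14 donors, of which 10 began with GC. Flag C is part of the rule for members, so these bases describe what the flag separates.

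The 3 exon bases left out by members with an acceptor 3 bases on were CAG in 116 of the 173 that could be read (67.1%), AAG in 36 (20.8%), TAG in 16 (9.25%) and GAG in 5 (2.89%). Exons after A 1 C 1 junctions began with these letters in another proportion: CAG in 0.676% of 96620 exons, AAG in 0.912%, TAG in 0.114% and GAG in 3.39%. Counted from the exon starts, 111 of the 653 that began with CAG had a member 3 bases on (17.0%; 14.3 to 20.1), and 15 of 110 with TAG did (13.6%; 8.44 to 21.3). For AAG it was 36 of 881 (4.09%; 2.97 to 5.61) and for GAG 5 of 3276 (0.153%; 0.0652 to 0.357). A flag A 1 junction 3 bases on followed the same order of letters, with 40.1% for CAG, 32.7% for TAG, 4.43% for AAG and 0.122% for GAG. The intervals of CAG and TAG overlap for members, and those of AAG and GAG lie below both. None of the 91700 exon starts with other letters at bases 2 and 3 had a junction of flag C 1 exactly 3 bases on. All member acceptors that could be read ended in AG, so this absence follows from flag C and tests nothing.

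Use of the acceptors at 3 bases varied from 0.0259% to 99.1% of the donor's reads. Their median share was 19.6% (16.9 to 21.2), with 16.9% for acceptors 3 bases on and 29.4% for acceptors 3 bases before the flag A 1 one. Cfd, complement factor D, gave the highest member with a single shared end, at chr10:79353726-79354203 on the plus strand. It had 13155 reads in R1 and 6610 in R2, and its flag A 1 partner had 11030 and 4873. The member took 55.3% of the donor's reads, and both junctions were higher in R1.

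The others of this kind ranged widely. In Fau, a ribosomal protein fusion gene, the member had 867 and 703 reads and its partner 977 and 519, so the member took 50.7%. In Ces1e, a carboxylesterase, the member had 635 and 656 reads, 45.3% of the donor's reads. In Aes, a transcriptional corepressor, the member had 810 and 820 reads beside 11544 and 11083 in the partner, a share of 6.72%. Psap, the precursor of the lysosomal saposins, had 515 and 482 reads at 7.14%, and Tmem176b, a membrane protein, 610 and 520 at 10.1%. Cfd and Aes were named by rank among the offsets, and Fau, Ces1e, Psap and Tmem176b after their values were seen. M21 holds 87 of the 254 junctions at 3 bases (34.3%), among them those of Cfd, Aes, Fau, Ces1e and Tmem176b but not that of Psap.

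The highest members at 4, 5 and 6 bases differed as much. Ddc, aromatic L-amino acid decarboxylase, which makes dopamine in proximal tubule cells, had a donor 4 bases earlier with 921 reads in R1 and 1566 in R2, against 6 and 9 for the flag A 1 partner. It took 94.7% of the acceptor's reads. In Prkcsh, the beta subunit of glucosidase II, a donor 4 bases later had 304 and 473 reads against 866 and 1191, so it was the less used donor. In Miox, myo-inositol oxygenase of the proximal tubule, an acceptor 5 bases on had 345 and 389 reads against 24246 and 31051, a share of 1.31%. In Atp5j, a subunit of ATP synthase, the acceptor 5 bases on had 281 and 500 reads against 3921 and 6833, a share of 6.33%. Ddx17, an RNA helicase, had a donor 6 bases earlier with 310 and 336 reads against 205 and 190, a share of 61.9%. In Pdcd6, a calcium-binding protein, such a donor had 124 and 122 reads against 252 and 428, a share of 26.6%. The members of Miox and Atp5j were not found in M21, and the other 4 were.

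Larger shifts gave some of the most used members, named here after their values were seen except Fxyd2. Fxyd2, the gamma subunit that regulates the sodium pump, had 5429 reads in R1 and 7349 in R2, 75.4% of the 16956 reads at its acceptor. Its donor lay 36 bases earlier than the nearest flag A 1 donor, which had only 17 and 34 reads. Most of the acceptor's other reads thus came from donors other than that one. Hnf4a, a transcription factor of proximal tubule and liver, had 2351 and 2965 reads from a donor 30 bases earlier, against 996 and 1136 for the partner. That member took 70.5% and was not found in M21. Pth1r, the receptor for parathyroid hormone, had 2031 and 1882 reads from a donor 1276 bases earlier, against 266 and 180, a share of 89.3%. Ndufs8, a subunit of respiratory complex I, had 2129 and 2538 reads at 94.3% of its acceptor, and Prpf19, a splicing factor, 1416 and 1563 at 87.5% of its donor.

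Members with both ends shared fell into those within a gene and those between genes. Of the 1105, 542 (49.0%) joined ends of the same gene and 478 (43.3%) joined ends of different genes. The others had a gene at only 1 end (51), at neither (13), or copies that the lengths could not tell apart (21). Within a gene the median span was 4325.5 bases and the median count 46. Between genes they were 63208.5 bases and 128 reads. The within-gene members took a median of 6.85% of the reads at the busier end, and the between-gene members 30.5%, with a highest value of 50.2%.

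Within a gene, 440 of the 542 (81.2%) skipped exactly 1 exon whose flanking flag A 1 junctions were both in the table. The skipped exons had a median length of 108 bases (quartiles 74 and 151), and 199 (45.2%; 40.6 to 49.9) were a multiple of 3. Skipping was computed as the member's reads over the sum of its reads and the mean of the 2 inclusion junctions. Its median was 8.88% (7.44 to 11.1; range 0.0497 to 99.4), and 210 exons (47.7%) were skipped in 10% or more.

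The 6 highest skips were named after their values were seen. In App, the amyloid precursor protein, a 57-base exon was skipped by 1542 reads in R1 and 2159 in R2, against totals of 1861 and 1210 reads on its 2 inclusion junctions, 70.7% skipped. In Egf, the epidermal growth factor precursor made in the distal convoluted tubule, a 123-base exon was skipped by 1454 and 1368 reads, 26.0%. Serpinh1, a collagen chaperone, skipped a 44-base exon with 1437 and 1132 reads, 98.3%. Tmem8 skipped a 147-base exon (15.7%), Xpnpep1, an aminopeptidase, an 89-base exon (52.6%) and Ivd, isovaleryl-CoA dehydrogenase, a 105-base exon (17.7%). The inclusion junctions of the Xpnpep1 exon were unequal, with totals of 1015 and 237 reads, so its value depends on taking their mean. Of these 6, the Ivd skip was the one not found in M21.

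Between genes, most members joined genes with like symbols. The 478 members joined 196 gene pairs, and in 393 (82.2%) the 2 symbols were alike up to their first digit. They held 360632 reads, 34.8% of all member reads, and M21 holds 4 of their introns. The border sequences of the 2 genes, compared as printed near the opening, were alike over 15 of 15 bases on at least 1 side in 457 (95.6%). A run of 30 or more like bases touched the border in 397 (83.1%), and the run reached 75 bases, the longest compared, on a side in 266 (55.6%). Read placement between such copies cannot be checked in these files, and its part in these counts was not tested.

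Globin genes gave the highest of them. The member from Hba-a1 to Hba-a2, the paired alpha globin genes, lay at chr11:32184129-32197079 on the plus strand and had 33674 reads in R1 and 51959 in R2. The matching junction within Hba-a1 had 34726 and 54384, and that within Hba-a2 had 33656 and 51969. The 3 values in each column lay within a few percent of each other. A second such member, in the preceding intron, had 7048 and 9919 reads, against 7048 and 9923 within Hba-a1 and 7052 and 9933 within Hba-a2.

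The beta globin pair, Hbb-bs and Hbb-bt, showed the same closeness with 1 of its genes at a time. One member, chr7:110961299-110975961 on the minus strand, had 8457 reads in R1 and 12003 in R2, against 16207 and 30599 within Hbb-bs and 8448 and 12011 within Hbb-bt. The other had 5433 and 14503, against 5433 and 14499 within Hbb-bs and 6066 and 16291 within Hbb-bt. R1 and R2 both lay within 1% of those of a gene's own flag A 1 junction in 155 of the 478 between-gene members (32.4%; 28.4 to 36.7). The median member had 61.7% of the reads of the larger of the 2 own junctions, and 76 (15.9%) had under 10%.

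Gene families of metabolism and transport followed. Cyp4a10 to Cyp4a31, genes of fatty acid omega-hydroxylases, had 10 members with 26864 reads in all. The highest had 6365 reads in R1 and 8608 in R2, against 7312 and 9321 within Cyp4a10 and 43 and 42 within Cyp4a31. From the same donor a member to Cyp4a32 had 4831 and 6490 reads, against 41 and 36 within Cyp4a32. At both acceptors the member had more reads than the acceptor gene's own junction.

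Other pairs varied in the same 2 ways. Selenbp2 to Selenbp1, selenium-binding proteins, had 10 members with 22986 reads and spans of 240044 to 243034 bases. The highest had 3826 and 4183 reads, against 3361 and 3815 within Selenbp2 and 4980 and 6145 within Selenbp1. Slc6a20a and Slc6a20b, transporters of proline and related amino acids, had 10 members with 11586 reads. Their highest had 1831 and 1569 reads, and the own junctions had 335 reads in all within Slc6a20a and 3480 within Slc6a20b. The member from Klk1b5 to Klk1, kallikreins, had 2207 and 1752 reads, beside totals of 52 within Klk1b5 and 29417 within Klk1. Myl12a to Myl12b, regulatory myosin light chains, was a pair whose connecting intron M21 holds, with 1756 and 2630 reads, beside totals of 4590 and 2483 within the genes.

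Identical counts marked a further set of members. In 455 members (8.35%; 7.64 to 9.11), R1, R2 and the deposited whole number of the ninth column were all equal to those of another junction that used the same end. Among A 1 C 1 junctions it was 206 (0.211%) and among A 0 C 0 junctions 18 (1.41%). With counts of 100 or more, where equality of small numbers is less frequent, it was 195 of 1521 members (12.8%), 0.173% of A 1 C 1 junctions and 0 of 460 A 0 C 0 junctions (upper bound 0.828%). The share was 2.01% at spans of 1000 to under 10000 bases, 16.1% at 10000 to under 100000 and 45.8% at 100000 or more. Of the 455 members, 168 joined different genes, among them those between Tmem254a, Tmem254b and Tmem254c. Whether the same reads were counted at both junctions was not tested.

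**Figure D5:**
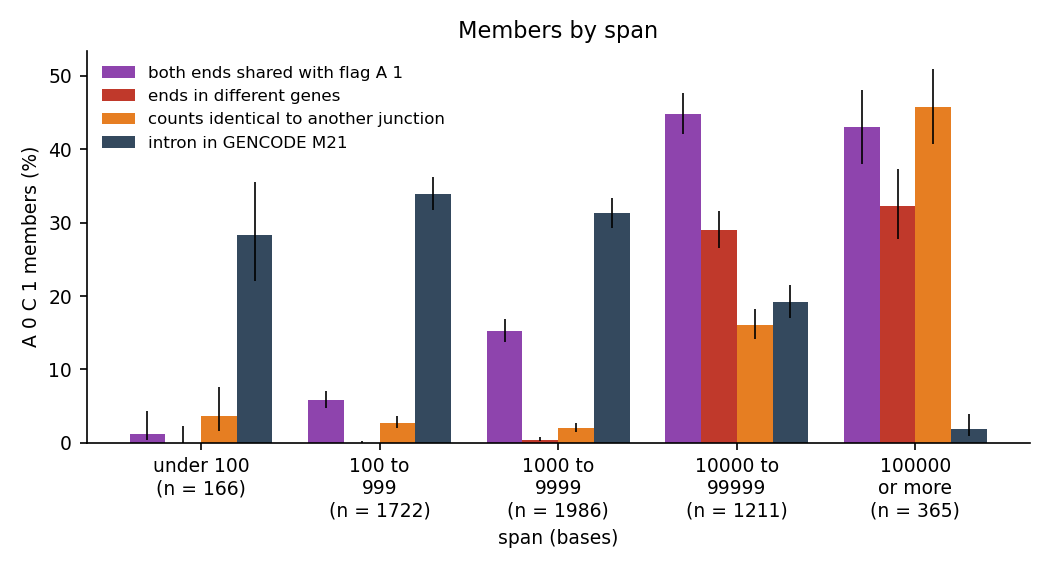
Percentage of A 0 C 1 members in each span class that shared both ends with flag A 1 junctions, joined different genes, had counts identical to another junction at an end, or matched an intron of GENCODE M21, with Wilson 95% intervals as bars. In both classes of 10000 bases or more, the first 3 percentages are higher and the M21 percentage is lower than in each shorter class, with M21 at 1.92% in the longest.

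GENCODE M21, a later release than the M4 of the gene tables, holds the introns of 1493 members (27.4%; 26.2 to 28.6), against 99.0% of A 1 C 1 and 1.02% of A 0 C 0 junctions. By shared end it was 29.4% with the donor, 32.8% with the acceptor, 14.8% with both and 29.6% with neither. Introns were looked up by matched lengths, directly or from a named flag A 1 junction at a shared end. Some introns that M21 holds can be missed this way, and members with no shared end had only the direct route. The deposited contigs, stretches of continuous signal, covered the last exon base on both sides of 86.9% of members, 99.6% of A 1 C 1 junctions and 96.6% of A 0 C 0 junctions. Coverage was 78.6% for members with both ends shared and at least 86.1% in each of the other groups.

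Members that shared no end were of several kinds. Of these 1450, 1096 (75.6%) overlapped no flag A 1 junction on either strand, 158 (10.9%) overlapped flag A 1 junctions of the other strand only, and 101 lay inside a flag A 1 junction of their own strand. An end was shared with another member by 590 (40.7%). M21 names the intron of 429, of which 299 fell in protein-coding genes and 37 in long intergenic RNA genes. The highest were in Ly6a, a surface protein of progenitor and endothelial cells, with 3346 reads in R1 and 4305 in R2, counts that another junction at the same end also had, and in Acy3, an aminoacylase of the proximal tubule, with 3374 and 3518. Acy3 had a second with 1927 and 1728, the pseudogene Gpr137b-ps had 2254 and 3038, and Elob, a subunit of elongin, 1571 and 1531. The highest that no M21 gene names had 1298 and 1393 reads, at chr4:133715914-133719392 on the plus strand. Apart from Ly6a, these were named after their values were seen.

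Pairs of members outlined 181 candidate internal exons, in which 1 member shares the donor and another the acceptor of a flag A 1 junction and their free ends face each other inside it. A member can belong to more than 1 pair, as in Slc34a1, Fxyd2 and Slc5a2, so some candidates overlap and they are not 181 separate exons. The shares, medians and intervals below count each pair as 1 candidate. Of these, 149 were up to 500 bases long, with a median of 100 bases (quartiles 64 and 144). A multiple of 3 bases was found in 71 (47.7%; 39.8 to 55.6), and 58 (38.9%) were in M21. A contig covered both edges in 148 (99.3%). Inclusion, the mean of the member pair over that mean plus the flag A 1 junction, had a median of 12.8% (9.56 to 16.7; quartiles 3.55 and 32.0).

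The 5 candidates with the highest smaller count were included in 11.4% to 84.7%. In Myl6, a myosin light chain, a 45-base exon at chr10:127928776-127928820 on the minus strand had 353 and 762 reads on 1 side and 418 and 773 on the other, in R1 and R2. The flag A 1 junction past it had 86 and 122, so inclusion was 84.7%. In Ctbp1, a transcriptional corepressor, a 193-base exon had 587 and 1431 reads on its sides against 435, 69.9% included. Hpcal1, a calcium sensor, had an 86-base exon with 538 and 356 reads against 653, at 40.6%, which was not found in M21 on both sides. The exons of Grina (98 bases, 14.0%) and Cystm1 (115 bases, 11.4%) were included less. Grina had 387 and 244 reads on its sides against 1943. The sides of Cystm1 were more unequal, with 1155 and 408 reads against 6064. In R1 and R2, its first side had 646 and 509 reads and its second 163 and 245.

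By host, 3269 members were placed in 1 gene by the end they shared, over 1992 genes. Most of these genes had 1 member (1352), and 67 had 5 or more. Of 11099 genes with an A 1 C 1 junction of the same support, 1967 (17.7%) had a member. Genes with a member had a median of 39.1 TPM in replicate 1 and 32.8 TPM in replicate 2, and genes without had 12.1 and 10.8 TPM. The floor of 10 reads is part of the rule, so nothing is read from this difference in level.

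Slc34a1, the sodium phosphate cotransporter of the proximal tubule, had the most members placed in this way, 31, at 5821 and 4317 TPM in replicates 1 and 2. Of these, 20 shared a donor, 6 an acceptor and 5 both, and 1 was in M21. Counts ran from 23 to 978 reads, and no member exceeded 1.24% of the reads at its shared end. Slc5a2, the glucose cotransporter SGLT2, had 14 members, the highest share being 2.19%, and Slc12a3 had 11 with a highest share of 7.89%.

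Mgam, maltase-glucoamylase, which digests starch at brush borders, was a host of lower level. At 12.1 and 9.76 TPM it had 25 members that shared an end and a further 19 that shared none, and 21 of the 44 were in M21. Its members reached 565 reads, with a median of 139 and a highest share of 81.2% at a shared end. Cdh16, the kidney cadherin, had 12, of which the highest, with a donor 73 bases earlier, had 626 and 703 reads and 10.6% of its acceptor's reads.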

How the data were processed

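Per the text records deposited beside the files, the junction and contig tables are on mm9 and the gene tables on mm10 with annotation M4; no source used here names the aligner or junction caller. The deposited count per junction is the sum of R1 and R2, as checked on every junction. The deposited score and the whole number of the ninth column have no stated meaning. The authors' contig signal was used only to ask whether a base lies in a contig. The deposited expected counts and TPM per gene served for depth, markers and host levels.

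Members, lists and comparisons were chosen with earlier results of these data known. With 1 group and a pooled table, no test across samples was possible, and no p-value is given. The libraries share a donor label. If R1 and R2 are these libraries, which no source used here states, they show the spread between these samples only. Shares carry Wilson and medians order-statistic 95% intervals. Named junctions were the 10 highest counts, 5 shortest, 5 longest, 5 highest shares of end reads (ends of 100 reads or more), the 2 highest at offsets of 3, 4, 5 and 6 bases, and the 5 candidate internal exons with the highest smaller count. Other names are marked as chosen after values were seen, except the gene pairs, host genes and extremes of R1 against R2, all so chosen.

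The plan had been to give a junction no gene name without an annotation of mm9. That plan was departed from after the data were seen: names came from an exact match of intron, exon and intron lengths to GENCODE M21 on GRCm38 (exons of up to 3000 bases), with no coordinates converted. The assignment of both-end members to the same or different genes was also refined after values were seen, so that the M21 ends must lie exactly 1 span apart. Classes, offsets and matches were tested on junctions simulated from M21 introns, with 1 end moved by a few bases. Members sharing both ends or none, exon skips, candidate internal exons and the same or different gene assignment were not simulated. Intron sequence was not used here. Python 3.11.15, pandas 2.3.3, numpy 2.4.6 and scipy 1.17.1 were used.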

Additional observations from a re-analysis of the deposited data

How the results depend on the processing

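The 10 results were recomputed under 11 alternatives, where these apply. Of the 99 values, 61 stayed within the 95% interval of the reported value, or within 1.5 times for a number of junctions or exons, and 38 did not. Leaving out chromosome 7 moved none. Leaving out members above 0.1 in the deposited measure also moved none, but it kept 5449 of the 5450 members and so could show little. With 5 or 20 reads as the floor in each column, members numbered 9779 or 2965, median count 29 or 102, median span 2148 or 2849 bases, both ends shared 18.8% or 22.8%, median share at the shared end 8.02% or 20.9%, multiples of 3 46.2% or 57.3% (main value 52.7%), and candidate internal exons 389 or 75. The floor of 10 was also put on R1 alone or on R2 alone, which does not amount to leaving out a replicate. The median count was then 42 or 36, the share at the end 10.6% or 10.4% and multiples of 3 49.0% or 49.6%. R1 alone gave a span of 2223 bases, and R2 alone 19.2% with both ends shared and 279 candidate exons. With flag A 1 junctions held to the same floor, an end was shared by 67.7%, both by 16.2%, and the share at the end was 11.3%. With a tolerance of 3 bases, both ends were shared by 25.4%, and 45.3% of members with 1 shared end shared the donor, against 50.3%. Of the 4 alternatives added after seeing the data, leaving out chromosome 7 is given above, and the other 3 moved these values. Without introns in M21: 93 candidate exons, count 49, share 10.6%, span 3148 bases, both ends 23.8%. Without spans over 100000 bases: span 2051 bases, both ends 18.6%. Without identical counts: share 12.2%, span 2097 bases, both ends 17.7%. No paired analysis was possible because the study has 1 group and R1 and R2 carry no replicate number. The floor of 10 reads in each column limits what can be seen in genes of low level.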

Other observations

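Chromosome X was outside the rule. By the same flags and floor it held 85 A 0 C 1 junctions and 2396 A 1 C 1 junctions.

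The deposited measure between 0 and 1, whose meaning is not stated, was above 0 in more of the members than of the A 1 C 1 junctions. It stood at exactly 0 in 25.7% of members, 54.6% of A 1 C 1 junctions and 31.7% of A 0 C 0 junctions, and reached 0.104, 0.022 and 0.395 in those groups. The whole number of the ninth column had a median of 34 in members, 90 in A 1 C 1 junctions and 37 in A 0 C 0 junctions.

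A flag A 1 junction with R1 and R2 of at least 10 itself shared an end with another flag A 1 junction in 13.7% and both ends in 2.61%.

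Exon starts after A 1 C 1 junctions that began with AAG had an A 0 C 1 junction below the floor of 10 reads exactly 3 bases on in 335 of 881 (38.0%; 34.9 to 41.3), beside 36 with a member. For GAG it was 308 of 3276 (9.40%; 8.45 to 10.4), beside 5 with a member, and for CAG 217 of 653 (33.2%; 29.7 to 36.9), beside 111 with a member.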
